A study of Solenopsis invicta with 3 samples.

Results

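The 91 genes described here took the largest numbers of reads in fire ant (Solenopsis invicta) worker antennae, out of 19703 genes in the count tables. They were chosen by their measured level: averaged over the 3 libraries, the normalized count had to be 1500 or more. Odorant receptor genes with IDs beginning with SiOR were left out by the rule. A normalized count is RSEM's expected count divided by a size factor of the library (from its 75th percentile), so that libraries of different depth can be compared. Because level chose the members, their levels and shares are a description and were not tested.

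Antennal RNA was sequenced from 3 worker classes: polygyne workers with the genotype SB/Sb at the social supergene (P_Bb), polygyne workers with SB/SB (P_BB), and monogyne workers with SB/SB (M_BB). Polygyne colonies have several queens and monogyne colonies have 1, and every class shares at least 1 copy of the SB variant. All workers came from the foraging area, and their age is not given in the sources used here. Each class had 1 library, made from RNA of pooled workers of several colonies, so no difference between libraries had a replicate check and no test was made. The labels name 4 colonies for every pool, the same 4 for P_Bb and P_BB and 4 others for M_BB, so that colony origin and social form cannot be told apart; which of these colonies entered each pool is not settled by the sources. In the bulk antennae, fewer cells of a type and less RNA per cell cannot be told apart either.

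The antenna is the main organ of smell of an ant. Its sensilla hold sensory neurons that carry odorant receptors, surrounded by support cells that secrete small soluble proteins, such as odorant-binding proteins, into the fluid around the neurons. In many tissues a few genes take a large part of all reads. A library's counts are shared out among its genes, so a smaller share for the first few genes leaves a larger share for the rest even where their RNA is the same.

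The summed expected counts were between 1310209 and 1800106 per library, and every member had at least 973 counts in each of them, so intervals from counting error were narrow for most ratios. Receptor genes with SiOR IDs and a count above 0 numbered between 431 and 439 of 473 in the 3 libraries, although they took few of the counts. All SiOR genes together took 0.379% of the P_Bb counts, 0.356% of the P_BB counts and 0.400% of the M_BB counts. The highest of them had a mean normalized count of 601, far under the 1500 of the rule. XLOC_043981, the first member, thus held more counts alone than all SiOR genes together in each library. The paper also names odorant receptors under XLOC and SINVm1 IDs, which these sums leave out.

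Of the 91 members, 49 had IDs of the official gene set (SINVm1) and 42 had XLOC IDs, which stand for antennal transcripts added to that set. The files do not pair the IDs with gene names, and 0 IDs were found in the RefSeq gene table of another assembly, so that the members are described by ID. The study's own list of 81 differing genes, beside 19703 genes in the count tables, holds 1 of the 91 members. This is XLOC_020263, which that list names as a CUGBP Elav-like family member. Proteins of this family are known from other animals to bind RNA and to act in splicing and in the control of mRNA stability. That list was chosen by the study on other libraries made at least partly from the same workers.

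The members together held 34.1% of the P_Bb counts (Wilson 95% interval 34.0 to 34.1), 36.5% of the P_BB counts (36.4 to 36.6) and 29.0% of the M_BB counts (28.9 to 29.1). The monogyne library thus gave the smallest share to the members. The mean that chose them holds both polygyne libraries, which favours this order. The intervals of the 3 libraries did not overlap. These intervals, like all others here, cover counting error only and do not measure the spread between workers or colonies. The reads carried no molecular identifiers, so copies from amplification count as separate reads and even the counting error may be understated. The lack of overlap therefore describes these libraries and not the worker classes. The difference was already present at the very top. The first 2 genes of each library took 10.2% for P_Bb, 12.2% for P_BB and 6.03% for M_BB, and the first 10 took 19.3%, 22.1% and 14.96%, respectively. To reach 50% of all counts took 345 genes for P_Bb, 301 for P_BB and 463 for M_BB.

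**Figure D1:**
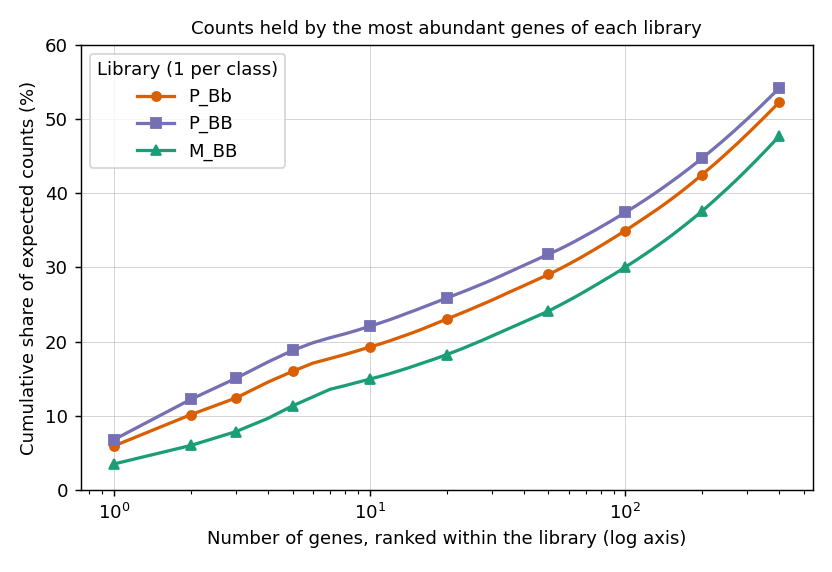
Cumulative share of a library's expected counts (vertical axis, percent) held by its most abundant genes, ranked within each library (horizontal axis, log scale), with 1 line per library. The M_BB line starts lowest, at 3.54% for the first gene, and ends lowest, at 47.7% for the first 400 genes, against 52.2% in P_Bb and 54.1% in P_BB.

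XLOC_043981 was first in all 3 libraries. It took 5.96% of the P_Bb counts (95% interval 5.92 to 6.004), 6.81% of the P_BB counts (6.77 to 6.85) and 3.54% of the M_BB counts (3.51 to 3.57). Its normalized counts were 92951, 109864 and 48235, in the same order. The M_BB value was the lowest by a wide margin, and P_BB stood above P_Bb as well. The log2 ratio of M_BB to P_BB was -1.19 (95% counting-error interval -1.20 to -1.17) and that of M_BB to P_Bb was -0.95 (-0.96 to -0.93).

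XLOC_043984 was second in all 3 libraries and had the same order of classes. Its share was 4.22% for P_Bb, 5.44% for P_BB and 2.50% for M_BB. Its normalized counts were 65769, 87737 and 34004, respectively. This gene has 2 transcripts, and the length that RSEM weights by their abundance was 1036 bases for P_Bb, 1164 for P_BB and 943 for M_BB. The ratio of 1.23 between the longest and the shortest of these was the largest of the members, so the mixture of the 2 transcripts was estimated to differ between libraries. The log2 ratio of M_BB to P_BB was -1.37 (-1.38 to -1.35) in normalized counts, -1.12 with scaling by total counts and -0.82 in TPM, the deposited measure that is scaled by library and also divides by length. In XLOC_043981, which has a single transcript, the ratio was -1.19 in normalized counts and -1.04 in TPM.

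XLOC_001500, the third member by mean, followed the same order. It had 33236 normalized counts in the P_Bb library, 45607 in P_BB and 24216 in M_BB. The P_Bb value lay between the others, with a log2 ratio of -0.46 to P_BB (-0.48 to -0.44), and the M_BB value was lower again, with a log2 ratio of -0.46 to P_Bb (-0.48 to -0.43). XLOC_016279 came next, with 34890, 35369 and 25375 normalized counts. Here the polygyne libraries were close, with a log2 ratio of P_Bb to P_BB of -0.02 (-0.04 to 0.00), and M_BB alone was lower, with a log2 ratio of -0.48 to P_BB (-0.50 to -0.46).

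XLOC_043982 and SINVm1_gene_13396, the fifth and sixth members, were nearly level across the libraries. XLOC_043982 had 22798 normalized counts for P_Bb, 25302 for P_BB and 23073 for M_BB. SINVm1_gene_13396 had 17098, 16560 and 16546. The largest log2 ratio of the first was -0.15 (P_Bb to P_BB) and that of the second was -0.05 (M_BB to P_Bb). With scaling by size factors neither was lower in M_BB by more than 25%, and as shares of the library both were largest in M_BB, at 1.69% and 1.21%.

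SINVm1_gene_06964 was the seventh member and the one that departed most in the other direction. It had 9573 normalized counts in the P_Bb library, 10899 in P_BB and 13795 in M_BB. M_BB was highest, with a log2 ratio of 0.34 to P_BB (0.31 to 0.37) and of 0.53 to P_Bb (0.49 to 0.57). Its coding length of 345 bases was the shortest of all members. By TPM it was the first gene of each library, with 96855 TPM for P_Bb, 102704 for P_BB and 144269 for M_BB. In M_BB it had 2.80 times the TPM of the second gene by TPM, XLOC_043984, against 1.17 and 1.13 times in P_Bb and P_BB. TPM divides by coding length in SINVm1 genes and by transcript length in XLOC genes, so their order by TPM is not exact.

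**Figure D2:**
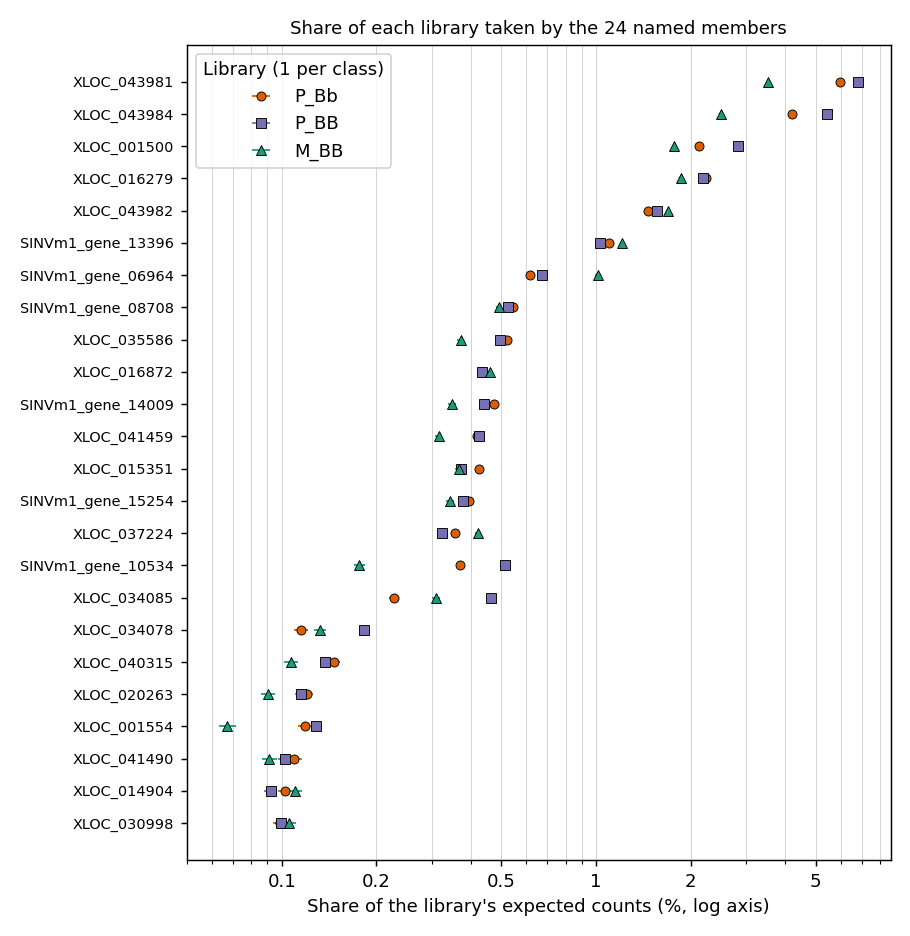
Share of each library's expected counts (horizontal axis, percent, log scale) taken by the 24 members that are named, ordered by mean normalized count, with 1 symbol per library. Bars are Wilson 95% intervals, most of them narrower than the symbols. The M_BB triangle lies left of both polygyne symbols in XLOC_043981 (3.54%) and SINVm1_gene_10534 (0.177%) and right of them in SINVm1_gene_06964 (1.01%).

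To ask which genes made up the lower share in M_BB, the difference was split into 1 term per gene. Against P_BB the members' share was lower by 7.50 percentage points in M_BB. XLOC_043981 gave -3.27 points, XLOC_043984 gave -2.94 and XLOC_001500 gave -1.05. These 3 genes together gave -7.26 points, which is 96.9% of the net difference. The other 88 members added -0.24 points as shares of all counts. Of the counts left without the 3 genes, however, these 88 held 23.0% in M_BB and 25.2% in P_BB.

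The net difference hides terms of both signs. Against P_BB, 43 members had a smaller share in M_BB and summed to -9.14 points, while 48 had a larger share and summed to 1.64 points. XLOC_043981, XLOC_043984 and XLOC_001500 made up 79.5% of the negative sum. The largest negative terms after the first 3 were those of SINVm1_gene_10534 (-0.34 points) and XLOC_016279 (-0.33 points). The largest positive terms were those of SINVm1_gene_06964 (0.34 points), SINVm1_gene_13396 (0.19 points) and XLOC_043982 (0.13 points). The positive terms were thus far smaller than the first 3 negative ones.

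Against P_Bb the members' share in M_BB was lower by 5.04 points. The same 3 genes gave -4.50 points, or 89.4% of the net difference, with XLOC_043981 at -2.42, XLOC_043984 at -1.72 and XLOC_001500 at -0.36. In this comparison XLOC_016279 took the third place, with -0.38 points. The other 88 members summed to -0.54 points. Both comparisons use the one M_BB library, so they are not independent of each other.

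The 3 genes also had the largest terms between the 2 polygyne libraries, for which the labels name the same colonies and different genotypes. The members' share was 2.46 points lower in P_Bb than in P_BB, and XLOC_043984 (-1.22 points), XLOC_043981 (-0.84 points) and XLOC_001500 (-0.69 points) summed to -2.76 points. That sum is 112% of the net difference, since the other 88 members together had a slightly larger share in P_Bb, by 0.30 points.

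**Figure D3:**
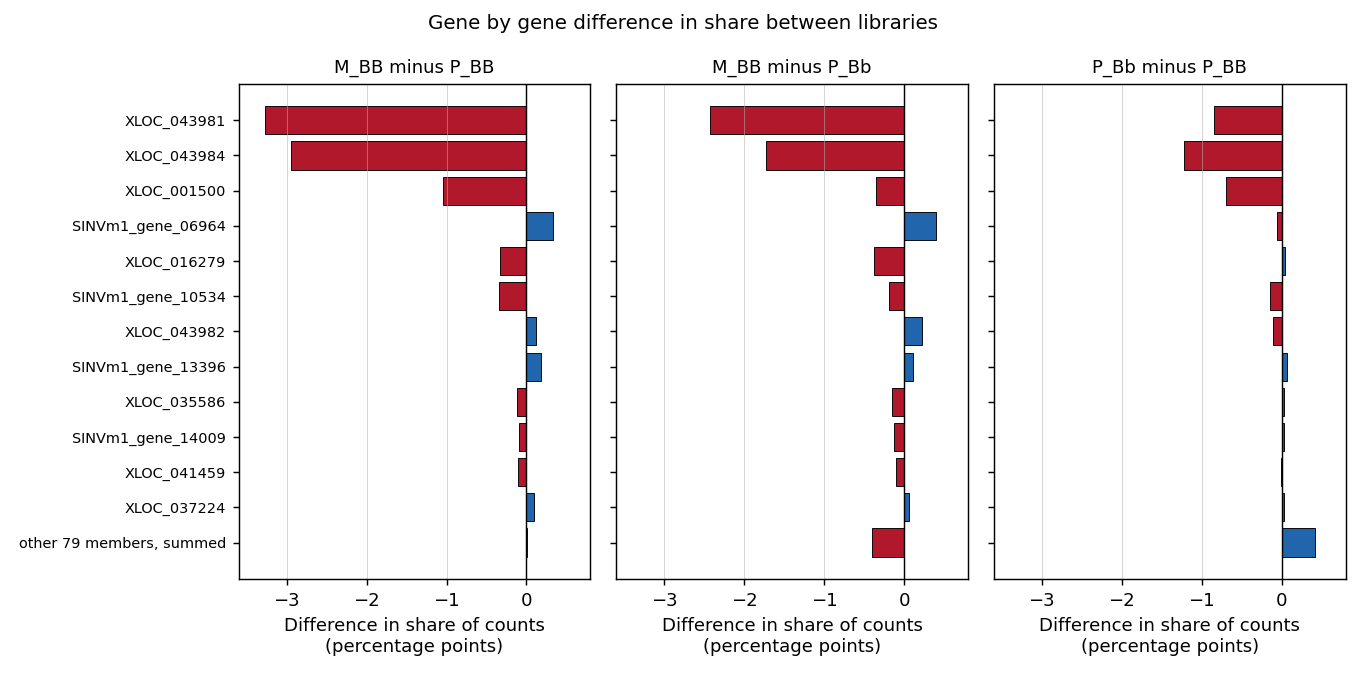
Difference in share of expected counts (horizontal axis, percentage points) for the 12 members with the largest difference between M_BB and the polygyne mean, and for the other 79 members summed, in the 3 pairs of libraries. Red bars are negative and blue bars positive. The first 3 bars sum to -7.26, -4.50 and -2.76 points, and the 79 summed members to 0.0085, -0.40 and 0.41 points.

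Once the first 3 genes were set aside, the members' shares lay close together. The other 88 members held 21.7% of all counts for P_Bb, 21.4% for P_BB and 21.2% for M_BB. The 67 members that the naming rule did not single out held 11.4%, 10.8% and 11.1%, respectively. As a share of the counts left after removal of the 3 genes, the other 88 held 24.8%, 25.2% and 23.0%, so on this measure M_BB was still the lowest. The SiOR genes, too, were closer together on this measure, with 0.432% for P_Bb, 0.419% for P_BB and 0.434% for M_BB.

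By kind of ID, the difference lay in the XLOC members. The 42 XLOC members held 22.9% of the P_Bb counts, 25.8% of the P_BB counts and 17.9% of the M_BB counts. The 49 SINVm1 members held 11.2%, 10.8% and 11.1%. The first 3 genes are all XLOC genes and alone held 12.3% of the P_Bb counts, 15.1% of the P_BB counts and 7.81% of the M_BB counts. Most of the difference of the XLOC members was thus that of these 3 genes.

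In normalized counts, M_BB was the lowest of the 3 libraries in 72 of the 91 members. The background is high: 53.7% of the 2599 genes whose mean normalized count reached 100 (the comparison set, members included) were also lowest in M_BB. M_BB was the highest library in 10 members, against 27.8% of the comparison set, and lay between the others in 9. By kind, 37 of the 42 XLOC members (88.1%) were lowest in M_BB, beside 73.8% of the XLOC genes of the comparison set, and 35 of the 49 SINVm1 members (71.4%), beside 44.8% of the SINVm1 genes. Highest in M_BB were 1 XLOC member (2.38%, beside 11.1%) and 9 SINVm1 members (18.4%, beside 35.2%). The mean that chose the members holds both polygyne libraries, which favours members lowest in M_BB over members highest in it.

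These counts depend on how the libraries are scaled. With scaling by total counts, M_BB was lowest in 41 members, beside 25.6% of the comparison set, and highest in 39, beside 57.1%. With total counts taken without the first 3 members, a scaling chosen after the data were seen, it was lowest in 52 members, beside 36.4%, and highest in 24, beside 44.6%. Total-count scaling moved the median log2 ratio of M_BB to P_BB over the comparison set from -0.08 to 0.16, a shift of every gene by the same amount. Relative to that median, the median of the members was -0.10 under either scaling.

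The median log2 ratio of M_BB to P_BB was -0.19 over the members and -0.08 over the comparison set, and for M_BB to P_Bb it was -0.23 and -0.11. For P_Bb to P_BB the medians were 0.02 and 0.01. Between M_BB and P_BB, 56 members (61.5%) differed by less than 25%, beside 71% of the comparison set, and between M_BB and P_Bb 52 members (57.1%) did, beside 69%. Between the polygyne libraries 84 members (92.3%) did, beside 91%. The most frequent orders with scaling by size factors were P_Bb above P_BB above M_BB, in 46 members (50.5%, beside 28.8% of the comparison set), and P_BB above P_Bb above M_BB, in 26 (28.6%, beside 24.9%).

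Lower in M_BB than in both polygyne libraries by at least 1.5-fold were 8 members, beside 3.23% of the comparison set. They were XLOC_043981, XLOC_043984, XLOC_035586, XLOC_041459, SINVm1_gene_10534, XLOC_040315, XLOC_020263 and XLOC_001554. None of the 91 was higher in M_BB by that fold, beside 0.77% of the comparison set. At a difference of at least 25% (the higher value over the lower), 31 members were lower in M_BB (15.8% of the comparison set) and 1 was higher, SINVm1_gene_06964 (3.73%). At 2-fold only SINVm1_gene_10534 and XLOC_001554 were lower, beside 0.346%. Of the 8, XLOC_043981, XLOC_043984, SINVm1_gene_10534 and XLOC_001554 passed 1.5-fold under every scaling tried and in TPM; the other 4 did not.

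SINVm1_gene_10534 was the member farthest apart in M_BB. It had 5735 normalized counts in the P_Bb library, 8305 in P_BB and 2407 in M_BB. M_BB was lowest and P_BB highest, with log2 ratios of M_BB to P_BB of -1.79 (-1.85 to -1.72), of M_BB to P_Bb of -1.25 (-1.32 to -1.18), and of P_Bb to P_BB of -0.53 (-0.58 to -0.48). With a coding length of 729 bases it was also among the most abundant genes per length, at the sixth place by TPM in P_Bb, the fifth in P_BB and the seventh in M_BB. By counts its rank was 17, 9 and 38.

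XLOC_001554 was the other member that was 2-fold lower in M_BB than in both polygyne libraries. It had 1842 normalized counts in the P_Bb library, 2078 in P_BB and 912 in M_BB, and its rank within M_BB was 182, the farthest down of any member in any library. Its log2 ratio of M_BB to P_BB was -1.19 (-1.30 to -1.08) and to P_Bb -1.01 (-1.13 to -0.90). The 2 polygyne libraries differed little here, by -0.17 (-0.27 to -0.08).

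The 4 others of this group were nearly level between the polygyne libraries and lower in M_BB. XLOC_035586 had 8094 normalized counts for P_Bb, 7973 for P_BB and 5060 for M_BB. XLOC_041459 had 6518, 6838 and 4297. XLOC_040315 had 2289, 2218 and 1457. Their log2 ratios of M_BB to P_BB lay between -0.67 and -0.61, close to the 1.5-fold limit. XLOC_020263, the CUGBP Elav-like gene, had 1869, 1850 and 1231 normalized counts and a log2 ratio of M_BB to P_BB of -0.59 (-0.69 to -0.49), with a ratio of 0.01 (-0.08 to 0.11) between the polygyne libraries.

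**Figure D4:**
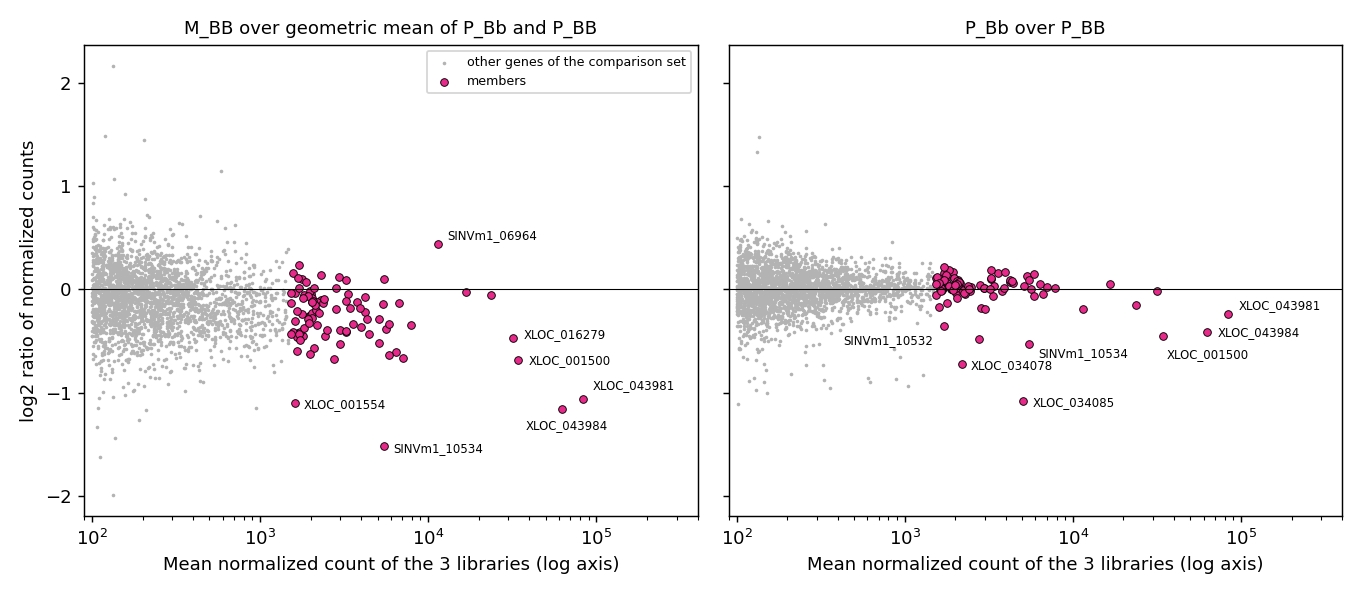
Log2 ratio of normalized counts (vertical axis) against the mean normalized count (horizontal axis, log scale) for the 91 members (large points) and the rest of the comparison set (grey), for M_BB over the geometric mean of the polygyne libraries (left) and P_Bb over P_BB (right). On the labels, SINVm1_ stands for SINVm1_gene_. SINVm1_gene_10534 and XLOC_043984 lie low on the left, and XLOC_034085, with a log2 ratio of -1.08, lies lowest of the members on the right.

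P_BB was higher than both other libraries by at least 1.5-fold in 2 members, XLOC_034085 and XLOC_034078, beside 0.231% of the comparison set. P_BB shares its genotype with M_BB and its social form with P_Bb, so neither label alone sets it apart from both. The cause of this pattern was not tested. XLOC_034085 had 3537 normalized counts for P_Bb, 7481 for P_BB and 4219 for M_BB, and XLOC_034078 had 1789, 2952 and 1802. The log2 ratio of P_Bb to P_BB was -1.08 (-1.14 to -1.02) for the first and -0.72 (-0.81 to -0.63) for the second. With total-count scaling 0 members passed, and in TPM only XLOC_034085 did.

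At the 25% limit, 7 members were higher in P_BB than in both others, beside 2.15% of the comparison set. Of these, 5 had the order P_BB above P_Bb above M_BB: XLOC_043984, XLOC_001500, SINVm1_gene_10534, SINVm1_gene_10532 and XLOC_037911. In the first 4 of them M_BB was also lower than both others by 25% or more, so these genes were spread over all 3 libraries. P_Bb was 1.5-fold apart in no member, lower in 0 (0.577% of the comparison set) and higher in 0 (0.115%). P_BB was lower in 0 members, beside 0.0385%.

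Several of the members that stood apart have neighbouring ID numbers; these groups were noticed after the values were seen, and the IDs were not placed on the genome here. XLOC_043981, XLOC_043982 and XLOC_043984 are all among the first 5 members. The second of these did not share the difference of the other pair: the count of XLOC_043981 was 4.08 times that of XLOC_043982 in P_Bb, 4.34 times in P_BB and 2.09 times in M_BB. These are ratios within a library, which do not depend on the scaling.

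SINVm1_gene_10532, not named by the rule, and SINVm1_gene_10534 are another such pair. SINVm1_gene_10532 had 2635 normalized counts for P_Bb, 3668 for P_BB and 1947 for M_BB. Both members had the order P_BB above P_Bb above M_BB, but their ratio was not constant. SINVm1_gene_10534 had 2.18 times the counts of SINVm1_gene_10532 in P_Bb, 2.26 times in P_BB and 1.24 times in M_BB. The ID between them, SINVm1_gene_10533, was at 0 counts in each library. The third pair is XLOC_034078 and XLOC_034085, with XLOC_034077, which is no member, at 98.7 normalized counts for P_Bb, 195 for P_BB and 99.9 for M_BB.

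Of the remaining members of the first 15, most were moderately lower in M_BB with scaling by size factors. SINVm1_gene_14009 had 7380 normalized counts for P_Bb, 7117 for P_BB and 4751 for M_BB. SINVm1_gene_08708, whose coding length of 43878 bases is the longest among the SINVm1 members, had 8511, 8452 and 6678. SINVm1_gene_15254 had 6123, 6095 and 4682. In these 3 the polygyne libraries were close, with 0.05 as the largest log2 ratio between them, in SINVm1_gene_14009. XLOC_015351 had 6630, 5999 and 4996 and a larger step between the polygyne libraries, a log2 ratio of 0.14 (0.09 to 0.20). With total-count scaling the log2 ratio of M_BB to P_BB was -0.34 in SINVm1_gene_14009. It was nearer to level in SINVm1_gene_15254 (-0.14), SINVm1_gene_08708 (-0.10) and XLOC_015351 (-0.02).

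XLOC_016872 and XLOC_037224 were nearly level. XLOC_016872 had 6745 normalized counts for P_Bb, 6979 for P_BB and 6267 for M_BB. XLOC_037224, with 5534, 5219 and 5738, was the only XLOC member highest in M_BB with scaling by size factors. Its log2 ratio of M_BB to P_BB was 0.14 (0.09 to 0.19) and its interval against P_Bb reached 0.

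The 67 members outside the naming rule had mean normalized counts between 1562 and 5368, with a median of 2085. Each took between 0.0913% and 0.371% of a library. Their log2 ratios of M_BB to P_BB ran from -0.91 (SINVm1_gene_10532) to 0.31, with a median of -0.17. Between the polygyne libraries the ratios ran from -0.48 to 0.21, with a median of 0.04.

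The threshold cut through a continuous range of levels. The last 3 members were XLOC_041490, XLOC_014904 and XLOC_030998, with mean normalized counts of 1534, 1529 and 1528. The first 3 genes outside were XLOC_043169, XLOC_036206 and XLOC_036808, with 1476, 1472 and 1460. Ranked within a library, 88 members were among the 91 genes with most counts for P_Bb, 88 for P_BB and 84 for M_BB.

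A read count grows with the length of a transcript, and most members were long. The 49 SINVm1 members had a median coding length of 8394 bases (345 to 43878), against 2661 bases in the other 1748 SINVm1 genes of the comparison set. The 42 XLOC members had a median transcript length of 11209 bases (1164 to 67551), against 4793 bases in the other 758. The 2 kinds were kept apart because the lengths of the official gene set are nearly all multiples of 3, at 99.5%, and so hold no untranslated parts, whereas only 28.2% of the XLOC lengths are.

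The name of most abundant transcripts thus holds for reads but, per length, for a minority of the members only. By mean TPM, only 21 of the 91 members were among the 91 highest genes. XLOC_014904, with a transcript length of 44573 bases, ranked 4605 by TPM for P_Bb, 4829 for P_BB and 4780 for M_BB. At the other end, SINVm1_gene_06964, XLOC_043984, XLOC_043981 and XLOC_001500 held the first 4 places by TPM in each library. The members' share of all TPM was 32.1% for P_Bb, 35.0% for P_BB and 29.8% for M_BB, so that M_BB was again the lowest, with differences of -5.19 points to P_BB and -2.31 to P_Bb.

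Among the members, 13 were shorter than 2600 bases, a limit set after the values were seen. Their median log2 ratio of M_BB to P_BB was -0.42, against -0.18 in the 78 longer members. Short members were also lower between the polygyne libraries, with a median log2 ratio of P_Bb to P_BB of -0.17, against 0.03. Of the 8 members 1.5-fold lower in M_BB, 4 were short. The same split was not made over the comparison set, so none of these medians, nor the count of 4, has a background beside it. Over the 91 members, Spearman's rho of length with that ratio was 0.12. The mean fragment was 261 bases for P_Bb, 258 for P_BB and 256 for M_BB, and its part in the ratios of short members was not tested.

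**Figure D5:**
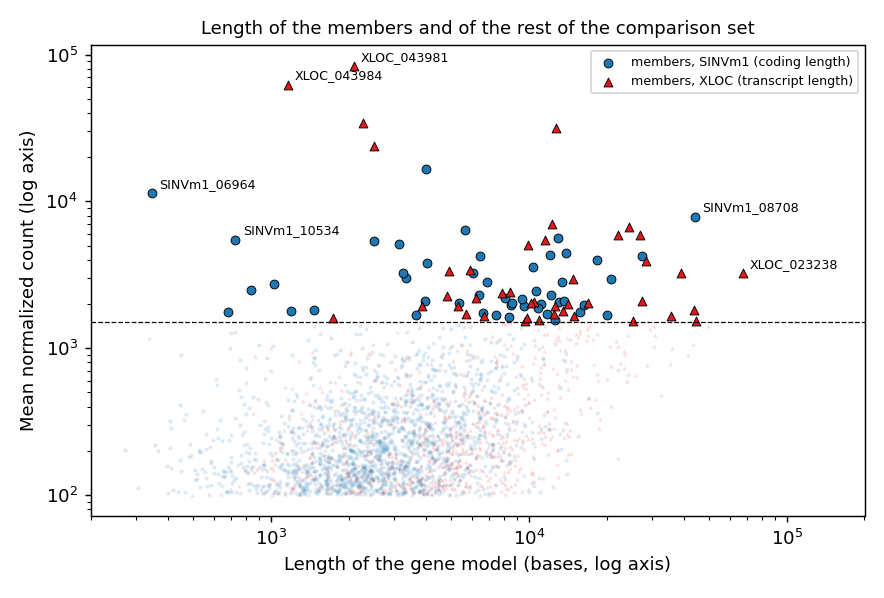
Mean normalized count (vertical axis, log scale) against the length of the gene model (horizontal axis, bases, log scale) for the members (outlined symbols) and the rest of the comparison set (pale), in circles for SINVm1 and triangles for XLOC genes. The dashed line is the minimum of 1500. SINVm1_gene_06964 lies farthest left, at 345 bases, and XLOC_023238 farthest right, at 67551 bases.

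Reads were assigned to the members with little estimated uncertainty. The posterior standard deviation of the count, which RSEM gives as the uncertainty from reads that fit several genes, was at most 0.633% of the count in the SINVm1 members and at most 1.963% in the XLOC members, where XLOC_037911 and XLOC_041459 were the 2 above 1%. In the rest of the comparison set it reached 45.1% and 42.4%, and it was 1% or more in 19 of 1748 SINVm1 and 177 of 758 XLOC genes. The measure divides by the count, and the members were chosen for high counts and are fewer. The 2 sets are therefore not a like comparison. All SINVm1 members had 1 transcript, and 19 of the XLOC members had more, up to 9. Reads of both strands were counted together, so a member that overlaps another gene on the opposite strand cannot be told apart from it.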

How the data were processed

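The authors mapped reads of polyA-selected antennal RNA, amplified with a stranded kit and sequenced as paired ends, to a joined transcript set and estimated expression with RSEM. The submitters' processing notes name Bowtie2 and RSEM. Their versions and the filters for these libraries are not given in the sources used here. The deposited expected counts are estimated counts that need not be whole, and the deposited posterior mean counts average over the possible assignments of a read. The deposited TPM values are scaled to a common total within each library after division by effective length. The recorded forward probability of 0.5 means that strand was not used. The authors' table of EBSeq probabilities and the transcript models, whose locus numbers differ from the count tables, were not used. The labels name 4 colonies per pool whereas the series text speaks of 3 pooled of 4 replicates.

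The size factors were 0.841 (P_Bb), 1.12 (P_BB) and 1.07 (M_BB), each library's 75th percentile (14847 genes counted in any library) relative to the geometric mean of the 3. Shares carry Wilson 95% intervals and log2 ratios a 95% interval that sums the Poisson variances of the 2 counts; no pseudocount was used. A library was apart when it differed from both others by 1.5-fold in 1 direction. Every such count is beside the comparison set of 2599 genes whose mean normalized count reached 100, of which 2 have SiOR IDs. Python 3.11.15, numpy 2.4.6, pandas 2.3.3 and edgeR 4.0.16 (TMM size factors on rounded expected counts) were used, and the steps were tested on simulated data.

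Named were the 15 members with the highest mean, the 10 with the largest difference in share between M_BB and the polygyne mean, every member 1.5-fold apart in 1 library, the 3 on either side of the threshold and the member on the study's list, in all 24 members. The members and lists were chosen with earlier results of these data known. Alternatives were other scalings, TPM, posterior mean counts, other minimums and folds, and removal of the 2 most abundant members.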

Additional observations from a re-analysis of the deposited data

How the results depend on the processing

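No paired analysis was possible because each class had 1 library. With 1 library per class, differences between classes carry no error beyond counting, and the cause of the changes below was not tested except where the setting itself makes them. Median-of-ratios, TMM and total-count scaling and posterior mean counts each gave 91 members again, a number set by the minimum: 1000 gave 177 and 3000 gave 33.

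The members' share was 40.9%, 43.2% and 36.0% in P_Bb, P_BB and M_BB at a minimum of 1000, 26.2%, 28.9% and 21.3% at 3000, and 32.1%, 35.0% and 29.8% in TPM. M_BB minus P_BB was -5.19 points in TPM, -7.22 at 1000, -1.29 without the 2 most abundant members in the sum and -3.20 without them in the sum and the total. M_BB minus P_Bb was -2.31 in TPM, -4.92 at 3000, -0.89 without the 2 members in the sum and -2.12 without them in both. The sign did not change under these settings.

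The 8 members 1.5-fold lower in M_BB (beside 3.23% of the comparison set) became 6 with the median of ratios (2.73%), 5 with TMM (2.58%), 4 with total counts (0.885%), 4 in TPM (1.501%), 31 at 25% and 2 at 2-fold. Members higher in M_BB became 1 at 25%. The 2 higher in P_BB became 0 with total counts (0.077% of the comparison set), 1 in TPM (0.231%), 7 at 25% and 0 at 2-fold. The share of all genes 1.5-fold lower in M_BB was 5.12% at a minimum mean of 10 and 8.72% with none, and that of genes higher was 3.68% and 12.1%.

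With total counts the members' median log2 ratio of M_BB to P_BB was 0.056 and to P_Bb -0.039, and over the comparison set 0.16 and 0.085. Of the named members at least 1.5-fold apart in a pair of libraries, 0 changed direction under any scaling or in TPM. A scaling shifts all ratios of a pair by the same amount, here by less than 1.5-fold. For the scalings this result was therefore fixed beforehand. Of all 24 named members, total counts changed the sign of 4 for M_BB to P_BB, 4 for M_BB to P_Bb and 2 for P_Bb to P_BB.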

Other observations

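Short genes that the minimum on counts leaves out stand high per length. Of the 91 genes with the highest mean TPM, 70 were no members, and their median length was 538 bases. The first of them was XLOC_043987, with 338 bases and the fifth highest mean TPM of all genes, whose ID number is near those of XLOC_043981, XLOC_043982 and XLOC_043984. Its TPM was 13279 for P_Bb, 12914 for P_BB and 11150 for M_BB. Its normalized counts were 1235, 1292 and 1003, with a log2 ratio of M_BB to P_BB of -0.36.

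SINVm1_gene_04498, with a coding length of 450 bases, came at place 8 by mean TPM, at 4981 TPM for P_Bb, 4247 for P_BB and 4580 for M_BB. SINVm1_gene_00283, with 273 bases, came at place 10, at 4715, 4185 and 4104 TPM. TPM of genes near the fragment length rests on a small effective length, and how far that moved these values was not tested.

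Some short genes outside the members differed between libraries. SINVm1_gene_01193, chosen after its values were seen, had 131, 233 and 313 expected counts and 1433, 1788 and 2780 TPM in P_Bb, P_BB and M_BB. SINVm1_gene_00767, chosen in the same way, had 1965, 2161 and 1166 TPM. Neither difference has a replicate check.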
